A study of Rattus norvegicus with 12 samples.

Results

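The transcripts described here are those of 10 genes of glutathione metabolism and the NRF2 antioxidant response, Gclc, Gclm, Gsta4, Gstp1, Mgst1, Gsr, Txnrd1, Nqo1, Hmox1 and Nfe2l2. They were taken by name, as every probe set whose single platform gene symbol is one of the 10, which gave 12 probe sets of the 31042 tested and 10 genes of the 14217 measured. Gclc and Txnrd1 have 2 probe sets each and the others 1. The levels in cells of the rat fibroblast line F111 that had adhered to plastic for 16 h (A16) were compared with those in cells taken into culture out of tumours (Tumor). The tumours had grown under the skin of nude mice injected with F111 cells that had first spent 16 h in suspension, and the labels date them to 3 months after injection. A16 is the study's control, and the question of the comparison is how expression differs between the adherent line and the tumour cells that descend from it. Each group had 3 arrays, namely biological replicate 1, a technical replicate 2 that was averaged with it, and biological replicate 2, so that n = 2 replicates per group. Tumor cells came through a host, mouse cells can remain in such cultures, and the number of mice behind the arrays is not given in the labels. One medium with one serum level is labelled for A16 and Tumor alike, while a higher serum level for explanted tumour cells stands in the methods.

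Glutathione is a tripeptide thiol that cells use to reduce peroxides and to tag electrophiles. Glutamate-cysteine ligase, with the catalytic subunit Gclc and the modifier subunit Gclm, makes the first bond of glutathione. Glutathione transferases couple the finished molecule to reactive compounds, and glutathione reductase, Gsr, returns the oxidised form to the thiol at the expense of NADPH. Many of these genes, together with Txnrd1, Nqo1 and Hmox1, are known targets of the transcription factor NRF2, the product of Nfe2l2. The protein KEAP1 holds NRF2 at a low level in unstressed cells, mostly through protein turnover, so that the Nfe2l2 transcript is not a measure of NRF2 activity. NRF2 pairs with small MAF proteins and binds the antioxidant response element.

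All values are log2 array intensity after RMA unless stated otherwise, and differences are Tumor minus A16 with the moderated standard error (SE). A probe set was called where its adjusted p in limma was under 0.05 and its fold at least 2. Array medians lay between 98 and 100 on the linear scale, and arrays of a group correlated at 0.991 or more against 0.933 to 0.949 between groups. Poly-A RNA added at labelling read a mean of 7.69 in A16 and 4.87 in Tumor, and the log2 of 3′ over 5′ signal was 0.68 in A16 and 2.32 in Tumor for beta-actin, 1.06 and 2.02 for hexokinase and -0.03 and 0.28 for GAPDH. These controls moved with the groups, and an effect of labelling and one of the cells cannot be told apart.

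The start regions of the genes show which of them hold the letters that NRF2 binds. The core of the antioxidant response element, TGACNNNGC, was searched on both strands from 250 bases before to 50 bases after each start in RefSeq's promoter table (GRCr8). The table held 8 of the 10 genes in 9 windows, and Gsr and Hmox1 were not in it. The core was in a window of Gclm, Gstp1, Txnrd1 and Nfe2l2 and in no window of Gclc, Gsta4, Mgst1 or Nqo1. Of all 33469 windows 12.1% held it, so that a match is a description and not a site, and the absence of a match says only that these letters are not in this window. Printed are 100 bases of 5 genes on which the comparison turns, Mgst1 and Gsta4 with the largest rises among the 10, Gstp1, the transferase with the core, Gclm from the synthesis pair, and Txnrd1, whose probe sets gave the only fall called. Capitals mark the core.
Mgst1: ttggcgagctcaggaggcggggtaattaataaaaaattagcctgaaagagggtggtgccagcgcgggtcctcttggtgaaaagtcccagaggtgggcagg
Gsta4: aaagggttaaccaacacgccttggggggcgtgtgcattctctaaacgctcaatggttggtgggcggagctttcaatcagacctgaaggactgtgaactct
Gstp1: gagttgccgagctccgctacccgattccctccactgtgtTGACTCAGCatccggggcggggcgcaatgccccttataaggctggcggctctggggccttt
Gclm: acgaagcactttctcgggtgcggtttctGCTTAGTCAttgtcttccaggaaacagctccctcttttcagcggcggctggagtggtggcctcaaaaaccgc
Txnrd1: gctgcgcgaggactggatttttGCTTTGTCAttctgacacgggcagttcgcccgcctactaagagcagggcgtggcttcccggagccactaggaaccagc

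In GRCr8 the printed stretches are chr4:172760830-172760929 on the plus strand for Mgst1, chr8:87947165-87947264 on the plus strand for Gsta4, chr1:210769706-210769805 on the minus strand for Gstp1, chr2:213031935-213032034 on the plus strand for Gclm and chr7:22755905-22756004 on the minus strand for Txnrd1. All are read 5′ to 3′ along the gene, from position -100 to -1 before the start, except that of Gclm, which runs from -200 to -101. Its core lies at -172 on the reverse strand. That of Txnrd1 lies at -78, also reversed, and belongs to 1 of the gene's 2 annotated starts. In Gstp1 the core lies at -61 and contains TGACTCA, the letters of an AP-1 site, which 4.63% of all windows hold. The core of Nfe2l2 lies after the start, at position 39, and is not printed.

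**Figure D1:**
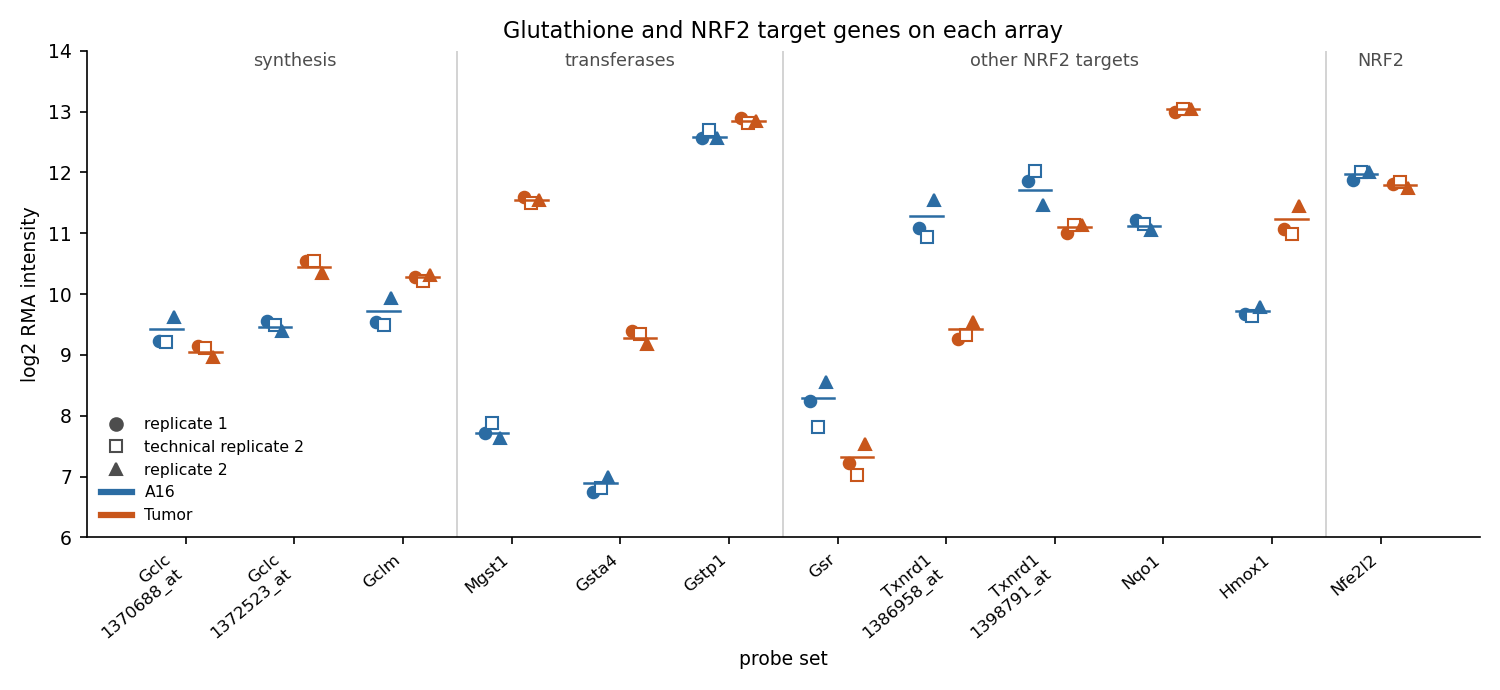
Log2 RMA intensity (y axis) of the 12 probe sets of the 10 genes (x axis) in A16 (3 arrays) and Tumor (3 arrays); each point is 1 array, open squares are technical replicate 2 and bars are group means. Groups can be compared within a probe set, not between probe sets; the Tumor points stand highest over the A16 points in Mgst1, where they lie between 11.50 and 11.59 against 7.64 to 7.88.

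Of the ligase that opens glutathione synthesis, the modifier subunit and 1 of 2 probe sets of the catalytic subunit were higher in Tumor cells, both by less than 2-fold. For Gclm the A16 arrays read 9.54, 9.50 and 9.94 and the Tumor arrays 10.28, 10.21 and 10.31, in the order replicate 1, technical replicate 2 and replicate 2. The groups did not overlap, and A16 replicate 2 was the nearest to the Tumor arrays. The difference was 0.55 ± 0.16, a 1.47-fold excess in Tumor with a limma adjusted p of 0.0404. It was 0.34 without A16 replicate 1, 0.59 without Tumor replicate 1 and 0.52 without Tumor replicate 2, none of which passed (limma adjusted p = 0.0792, 0.138 and 0.176).

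The brighter probe set of Gclc, 1372523_at, read 9.56, 9.49 and 9.39 in A16 and 10.54, 10.55 and 10.34 in Tumor. Every Tumor array lay above every A16 array by at least 0.78. The difference of 0.98 ± 0.13 amounted to 1.98-fold (limma adjusted p = 0.00182), just short of the fold required for a call, and it passed that fold at 1.05 without A16 replicate 1 and at 1.09 without Tumor replicate 2. The other probe set of Gclc, 1370688_at, went the opposite way, with 9.23, 9.21 and 9.62 in A16 and 9.15, 9.11 and 8.97 in Tumor. Its groups were separated by only 0.06, and the difference of -0.37 ± 0.16 did not pass the test (limma adjusted p = 0.136). It came to -0.17 with A16 replicate 2 left out, and to -0.57 with A16 replicate 1 left out, where it passed the adjusted p (limma, 0.00886). The 2 probe sets of Gclc thus differed by 1.36 in their log2 differences. Among the 4525 genes with several probe sets, 17.1% had a range at least as large.

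Transferases gave the largest rises among the 10 genes, although they did not rise together. Mgst1, a transferase of the microsomal and outer mitochondrial membranes that also reduces lipid peroxides, rose about 14-fold. Its A16 arrays read 7.72, 7.88 and 7.64 and its Tumor arrays 11.59, 11.50 and 11.54. No array of one group came within 3.62 of the other, and the Tumor arrays were nearly level. The difference was 3.82 ± 0.12, 14.2-fold (limma adjusted p = 1.375e-05), which was the 62nd largest rise among all 31042 probe sets.

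Gsta4, whose enzyme clears 4-hydroxynonenal and other products of lipid peroxidation, read 6.74, 6.82 and 7.00 in A16 and 9.39, 9.35 and 9.18 in Tumor. Its groups were 2.18 apart and the difference was 2.38 ± 0.13, or 5.22-fold (limma adjusted p = 7.437e-05). Gstp1, the abundant cytosolic transferase of the pi class, read 12.57, 12.69 and 12.56 in A16 and 12.89, 12.81 and 12.85 in Tumor. These groups did not overlap either, but they were only 0.12 apart. The difference of 0.25 ± 0.11, or 1.19-fold, did not pass the test (limma adjusted p = 0.129).

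Neither of the 2 reductases was higher in Tumor cells. Gsr read 8.24, 7.82 and 8.55 in A16 and 7.22, 7.03 and 7.53 in Tumor. The arrays of each group were spread widely, yet every Tumor array lay below every A16 array. The difference of -0.96 ± 0.21, 1.95-fold lower, passed the adjusted p (limma, 0.0155) without reaching the fold of a call. Summarised by PLIER instead of RMA, the same arrays gave -1.22, which was called lower, as were -1.22 without A16 replicate 1, -1.16 without Tumor replicate 2 and -1.02 without technical replicate 2. In the other direction, PLIER at an offset of 1 gave -1.36 (limma adjusted p = 0.0630) and leaving out Tumor replicate 1 gave -0.76 (limma adjusted p = 0.0962), and neither passed the adjusted p.

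Txnrd1, the cytosolic thioredoxin reductase, was lower in Tumor cells by both of its probe sets, to different extents. The brighter, 1398791_at, read 11.86, 12.03 and 11.47 in A16 and 11.00, 11.13 and 11.13 in Tumor, a difference of -0.61 ± 0.17 (1.53-fold lower, limma adjusted p = 0.0357). This did not pass at -0.38 without A16 replicate 1, at -0.58 without Tumor replicate 1 or at -0.64 without Tumor replicate 2 (limma adjusted p = 0.0557, 0.161 and 0.121). With 1386958_at the A16 arrays read 11.08, 10.94 and 11.54 and the Tumor arrays 9.26, 9.33 and 9.54. This difference was -1.86 ± 0.20, 3.62-fold lower (limma adjusted p = 0.000832). It was the only fall called among the 12 probe sets, and groups were 1.40 apart here against 0.34 for the brighter one. The position of each probe set along its transcript is not given in the sources used here, and the part of the 3′ over 5′ signal in the distance between the 2 was not tested.

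Nqo1 and Hmox1, enzymes known as NRF2 targets like the reductases, rose. Nqo1, which reduces quinones by 2 electrons at a time, read 11.22, 11.15 and 11.05 in A16 and 12.99, 13.05 and 13.05 in Tumor. The lowest Tumor array lay 1.77 above the highest A16 array. The difference was 1.92 ± 0.11, 3.77-fold (limma adjusted p = 8.763e-05).

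Hmox1, the inducible heme oxygenase, read 9.67, 9.64 and 9.78 in A16 and 11.07, 10.99 and 11.44 in Tumor. Tumor replicate 2 was the highest, and the groups were 1.21 apart. The difference was 1.52 ± 0.16, 2.86-fold (limma adjusted p = 0.000838). Hmox1 is also strongly expressed by macrophages. Of 10 macrophage markers 2 were higher in Tumor and 8 were not called, where 5.45% of all genes were called higher. The 2 were Csf1r, by 3.14 ± 0.14 (from a mean of 5.46 to 8.60), and Cd68, by 1.07 ± 0.12. The summed linear intensity of the 10 markers was 1333 to 1493 in A16 and 1731 to 1790 in Tumor. Cd14, the brightest of the 10, weighed most on these sums and was not called, with a mean of 9.93 in A16 and 9.77 in Tumor. Over all 6 arrays Adgre1, the dimmest, read 3.88 to 4.18, Cd163 4.51 to 4.88 and Mrc1 4.57 to 4.91. Fcgr1a read 5.14 to 5.39, Itgam 5.76 to 6.04, Aif1 5.90 to 6.32 and Lyz2 6.41 to 7.03. The Trp control, to which no transcript was added, read a mean of 4.26 in A16 and 4.21 in Tumor. The part of these markers in the difference of Hmox1 or the other genes was not tested. In bulk RNA of this kind, fewer cells of a type and less RNA per cell cannot be told apart.

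The transcript of NRF2 itself hardly differed. Nfe2l2 read 11.87, 12.01 and 12.01 in A16 and 11.81, 11.85 and 11.75 in Tumor. The lowest A16 array and the highest Tumor array were 0.013 apart. The difference of -0.18 ± 0.11 did not pass the test (limma adjusted p = 0.271). Keap1, which is not one of the 10 and was singled out after its values were seen, gave 2 answers. Its brighter probe set, 1370066_at, read 8.63, 8.76 and 8.73 in A16 and 8.60, 8.64 and 8.67 in Tumor, a difference of -0.07 ± 0.11 (limma adjusted p = 0.672). Its other probe set, 1387810_at, read 7.83, 7.73 and 8.78 in A16 and 5.64, 5.36 and 6.25 in Tumor, and was called lower at -2.41 ± 0.37 (limma adjusted p = 0.00345). Srxn1, sulfiredoxin, singled out in the same way, had differences 2.03 apart over its probe sets. Its brightest, 1372510_at, was not called at 0.28 ± 0.14, while 1384331_at was called lower at -1.75 ± 0.26 (limma adjusted p = 0.00333). The dim 1381067_at was not called at -0.07 ± 0.11. Of the 4525 genes with several probe sets, 40 had probe sets called in opposite directions, and the median range was 0.58.

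**Figure D2:**
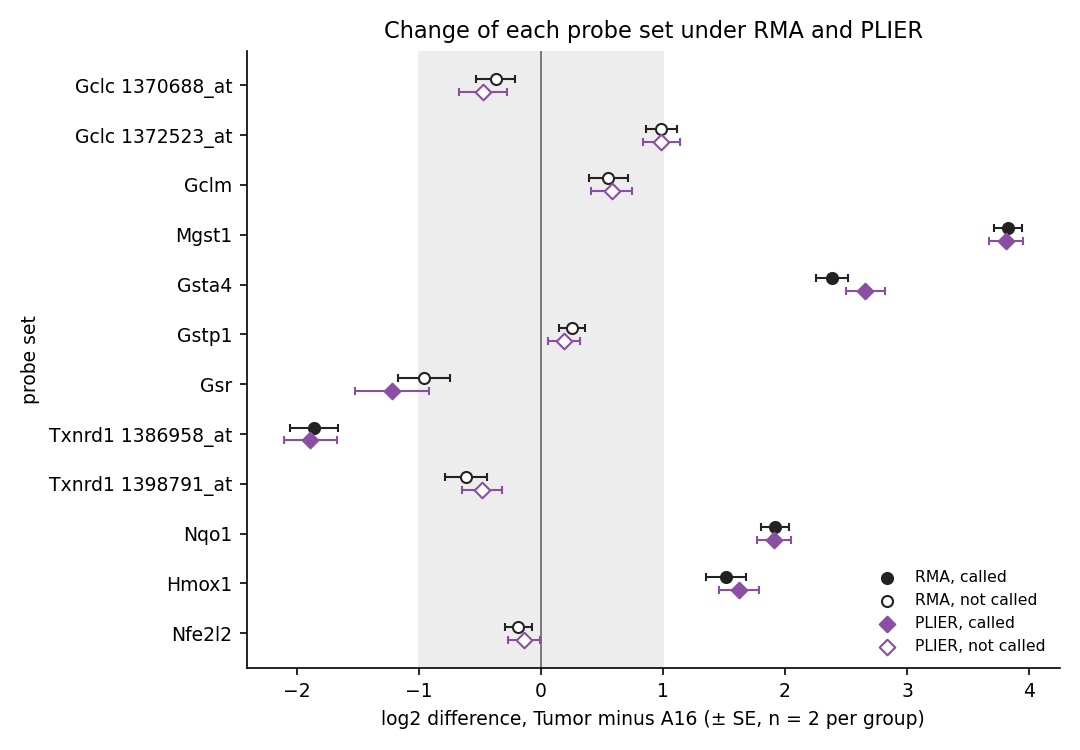
Log2 difference Tumor minus A16 with its SE (x axis) for the 12 probe sets (y axis), from the RMA and the PLIER values of the same arrays. Mgst1, Gsta4, Nqo1 and Hmox1 lie to the right, Txnrd1 1386958_at lies farthest to the left, and Gsr lies at -0.96 by RMA and -1.22 by PLIER.

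Of the 12 probe sets, 4 were called higher, 1 was called lower and 7 were not called. Of all probe sets tested, 11.9% were called, 5.51% higher and 6.39% lower. At the adjusted p alone, with any fold, 6 were higher and 3 lower, and 3 did not pass, against 31.8% of all probe sets passing. All 12 had 3 Tumor arrays on 1 side of the 3 A16 arrays, 7 above and 5 below, a separation that 52.6% of all probe sets had as well. With the brightest probe set standing for each gene, 4 of the 10 genes were higher, 0 were lower and 6 were not called, where 10.9% of all genes were called, 5.45% higher and 5.44% lower. At the adjusted p alone, which 34.0% of all genes passed, 2 of the 10 lay on the lower side, Gsr and Txnrd1. The arrays of all 10 lay apart, as did those of 55.9% of all genes. The median log2 difference was 0.77 over the 10 genes and 0.03 over all genes. By role, the brightest probe sets called were those of 2 of 3 transferases and, among the other NRF2 targets, of Nqo1 and Hmox1. Those of Gsr and Txnrd1, in the same role, were not called and lay on the lower side. The call of Txnrd1 was on its dimmer probe set, and the mean of its 2 probe sets, -1.23, was called lower as well.

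**Figure D3:**
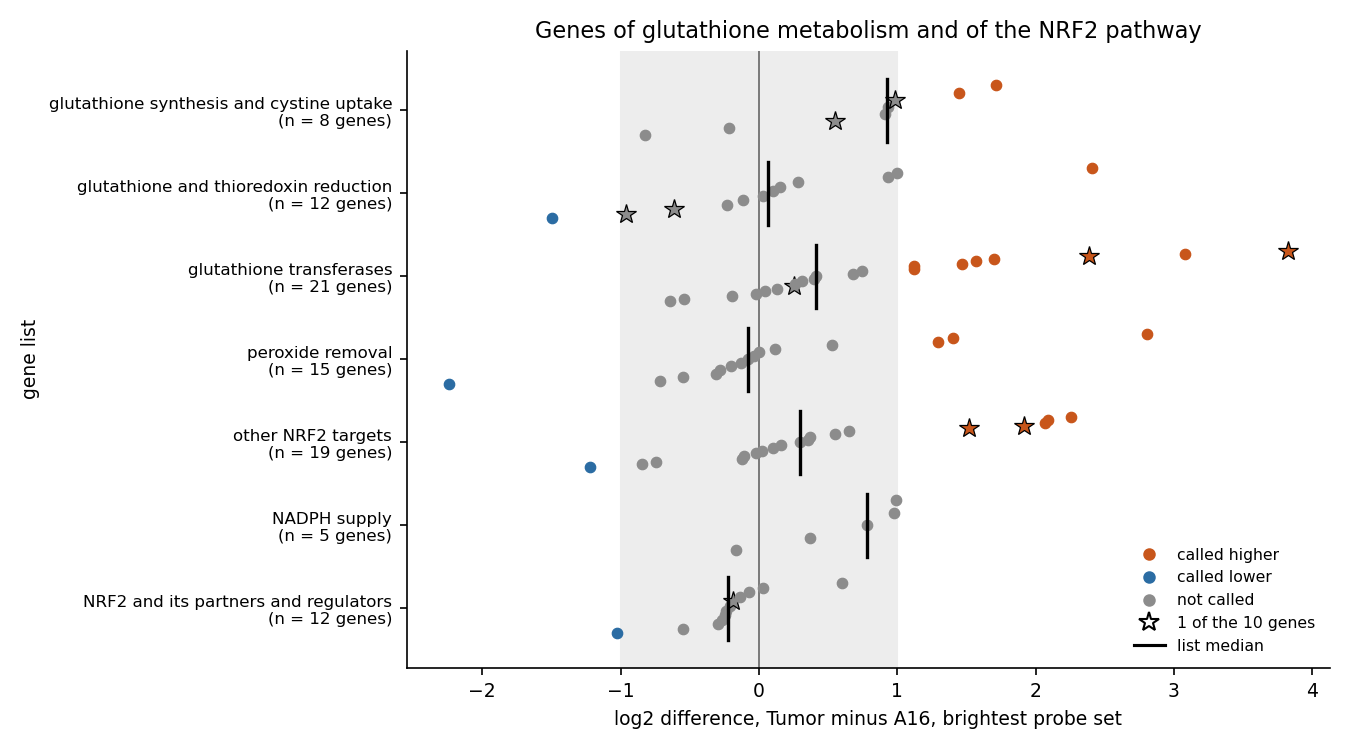
Log2 difference Tumor minus A16 (x axis) of each measured gene of the 7 lists of glutathione and antioxidant genes (y axis), with the brightest probe set standing for the gene, coloured by call, with stars for the 10 genes a black line for the list median and grey shading where the fold is under 2. Calls to the right outnumber those to the left most in the transferases, with 8 higher and 0 lower. The peroxide removal list, which also holds superoxide dismutases, spans -2.24 (Gpx7) to 2.80 (the dismutase Sod3).

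The wider pathway was described with 7 lists, which contain the 10 genes. The lists name 103 genes, 92 of which were measured, and 19 of these were higher in Tumor, 4 were lower and 69 were not called. That is 25.0% called, or 23.2% of the 82 genes left without the 10, where 10.9% of all genes were called, 5.45% higher and 5.44% lower. The counts of each list are read against the same shares. Without A16 replicate 2 the lower genes were 2 in place of 4. The median log2 difference of the 92 was 0.14.

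In the synthesis and cystine uptake list, 2 of 8 genes were higher, 0 were lower and 6 were not called, with a median of 0.92. The list also holds Chac1, Ggt1 and Ggt5, whose enzymes break down glutathione or its derivatives, and the 2 genes called were among these. Gclc, Gclm and Gss, the genes of synthesis itself, were not called, with Gss at -0.22 ± 0.12. Chac1, which degrades glutathione in the cytosol, rose by 1.71 ± 0.14 (3.28-fold), from 10.64, 10.50 and 10.88 in A16 to 12.28, 12.45 and 12.50 in Tumor. Ggt5, a gamma-glutamyltransferase that acts on glutathione derivatives outside the cell, rose by 1.45 ± 0.11 (2.72-fold). The other probe set of Ggt5 gave 0.28. At the adjusted p alone 6 of the 8 were higher and 1 lower, where 34.0% of all genes passed. Gclc, Gclm and the cystine transporter Slc7a11 (0.91 ± 0.12) were among the 6. The lower gene was Slc3a2, the other gene of cystine uptake in the list (-0.83 ± 0.12, limma adjusted p = 0.0030). The count of genes called higher was 1 with the mean over a gene's probe sets and 5 with PLIER at an offset of 1.

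The transferase list had 8 of 21 measured genes higher, against 5.45% of all genes, 0 lower and 13 not called, and a median of 0.41. Beside Mgst1 and Gsta4 these included Gstk1, the mitochondrial and peroxisomal kappa-class enzyme, which read 6.28, 5.57 and 5.59 in A16 and 8.74, 8.73 and 8.94 in Tumor. The first A16 array stood above both its technical repeat and replicate 2, and still lay far below every Tumor array. The difference of Gstk1 was 3.08 ± 0.15, 8.46-fold. Both further microsomal enzymes rose, Mgst3 by 1.70 ± 0.12 and Mgst2 by 1.47 ± 0.13. The cytosolic Gsta1 rose by 1.57 ± 0.14, Gstm1 by 1.12 ± 0.11 and Gsto1 by 1.12 ± 0.17. Gsto1 fell short of the 2-fold needed at 0.92 without A16 replicate 2 and at 0.996 without Tumor replicate 2. Genes of the alpha and mu classes have close copies, whose signal on a probe set may not be separable.

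Among 12 genes of glutathione and thioredoxin reduction, 1 was higher, 1 was lower and 10 were not called, with a median of 0.07. Txnrd3, a thioredoxin and glutathione reductase best known from testis, read 7.36, 7.09 and 6.70 in A16 and 9.47, 9.52 and 9.24 in Tumor. Its rise of 2.41 ± 0.20 (5.30-fold) was opposite in direction to both probe sets of Txnrd1. Txnip, the thioredoxin-interacting protein, fell by 1.50, with an SE of 0.18 (2.82-fold lower). Without A16 replicate 1, and without Tumor replicate 2, 2 genes of this list were higher and 2 lower.

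The list named peroxide removal also holds the superoxide dismutases Sod1, Sod2 and Sod3, whose enzymes remove superoxide and not peroxide. Of its 15 genes 3 were higher, 1 was lower and 11 were not called, and the median was -0.08. Sod3, the extracellular superoxide dismutase, rose by 2.80 ± 0.12 (6.98-fold), from 5.70, 5.57 and 5.59 to 8.29, 8.38 and 8.49. Catalase, Cat, rose by 1.40 ± 0.14 and Prdx5, a peroxiredoxin of mitochondria and peroxisomes, by 1.30 ± 0.11. In contrast, Gpx7, a peroxidase of the endoplasmic reticulum, read 11.30, 11.60 and 11.16 in A16 and 9.08, 8.94 and 9.11 in Tumor, and was 4.73-fold lower (-2.24 ± 0.14).

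Of the list of other NRF2 targets, 5 of 19 genes were higher, 1 was lower and 13 were not called, with a median of 0.30. Nqo1 and Hmox1 were 2 of the 5. The others were Aox1, aldehyde oxidase (2.26 ± 0.14, 4.77-fold), Nqo2, a second quinone reductase (2.09 ± 0.11, 4.25-fold), and Akr1b8, an aldo-keto reductase (2.07 ± 0.11, 4.19-fold). Akr1b8 read 11.57, 11.63 and 11.45 in A16 and 13.59, 13.58 and 13.60 in Tumor. Abcc1, a pump that exports glutathione conjugates, was 2.33-fold lower (-1.22 ± 0.21), with A16 arrays at 8.80, 9.13 and 9.54 and Tumor arrays at 7.83, 7.94 and 8.17. The call of Abcc1 rested on A16 replicate 2, without which the difference was -0.93.

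Of 5 genes of NADPH supply 0 were called in limma, and the median was 0.78. At the adjusted p 3 of the 5 passed on the higher side, where 34.0% of all genes passed in either direction. At an unadjusted p of 0.05, 4 passed. The median is the value of Me1, 1 of the 3, by its brightest probe set, 1370870_at. The other probe set of Me1, 1370067_at, gave -0.13 ± 0.15 (limma adjusted p = 0.584). The count called higher came to 2 with A16 replicate 1 left out, and to 1 with Tumor replicate 1 left out, with quantile normalisation or with PLIER at an offset of 1. Among 12 genes for NRF2 and its partners and regulators, 0 were higher, 1 was lower and 11 were not called, with a median of -0.22. The lower gene was Mafk, a small MAF partner of NRF2, at -1.03 ± 0.13 (2.04-fold lower). It fell short of the 2-fold needed at -0.93 without A16 replicate 2 and at -0.91 without Tumor replicate 1. Mafg, another small MAF, was not called by its brightest probe set (0.03 ± 0.27), while its other probe set, 1368874_a_at, was called lower (-1.32 ± 0.20, limma adjusted p = 0.00312). With the mean over a gene's probe sets, 2 genes of the list were lower.

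The identity of the cells was checked on 6 marker lists. Their counts are read against the shares of all genes called, 5.45% higher and 5.44% lower. Of 11 fibroblast markers, 4 were lower in Tumor (Col1a1, Thy1, Col1a2 and Fn1), 0 were higher and 7 were not called. Their summed linear intensity was 81710 to 89840 in A16 and 53190 to 54650 in Tumor. Of those not called, Vim read 14.17 to 14.36, S100a4 13.87 to 14.20 and Col3a1 11.26 to 12.16 over all 6 arrays. Pdgfra read 10.30 to 10.51 and Pdgfrb 6.74 to 7.18, while Dcn (4.58 to 5.38) and Lum (4.46 to 5.29) were dim. Lum passed the adjusted p on the lower side at less than 2-fold (-0.57 ± 0.16, limma adjusted p = 0.0351). Of 7 epithelial markers 1 was higher, Krt8, with summed intensities of 931.5 to 1053 in A16 and 2220 to 2452 in Tumor. Krt8 made up most of these sums, with a mean of 9.52 in A16 and 11.02 in Tumor. Any other epithelial marker read at most 6.33 on any array. Cdh1 passed the adjusted p at less than 2-fold (0.93 ± 0.12, limma adjusted p = 0.00169). No lymphocyte, endothelial or erythroid marker was called in limma, 0 of 7, 0 of 6 and 0 of 2. At an unadjusted p of 0.05, 0, 3 and 0 of them passed, and at the adjusted p 0, 2 and 0, where 34.0% of all genes passed. The 2 endothelial markers were Vwf (0.73 ± 0.11, limma adjusted p = 0.0038) and Pecam1 (0.53 ± 0.15, limma adjusted p = 0.0377), higher in Tumor by less than 2-fold. Lymphocyte sums were 302.5 to 332.4 in A16 and 299.6 to 352.9 in Tumor, endothelial sums 225.3 to 250.1 and 269.7 to 319.6, and erythroid sums 182.3 to 225.5 and 189.9 to 202.2. The part of the marker differences in the values of the antioxidant genes was not tested.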

How the data were processed

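The authors deposited linear array intensity, as RMA and as PLIER summaries of the same 6 Affymetrix rat arrays (12 sample records). Both algorithms are named in the submitters' processing notes, with versions not given in the sources used here. Log2 of RMA was the measure here, and log2 of PLIER, whose lowest value of 16 appeared to be an offset, an alternative. Of 31099 probe sets, 57 were array controls and 31042 were tested. The platform annotation gave 1 symbol to 20826, several to 436 and none to 9780, and the probe set with the highest mean over all arrays stood for a gene. Technical replicate 2 was averaged with replicate 1 on the log2 scale, a pairing that the labels do not state. The labels call replicates 1 and 2 biological, as do the methods, without naming separate cultures or animals for them. The p-values cover the spread among these samples alone, and the number of arrays limits the precision. Tumor was compared with A16 in limma 3.58.1 under R 4.3.3 (lmFit and eBayes, two-sided), with Benjamini-Hochberg adjustment over all 31042 probe sets. On simulated arrays of this comparison with 31042 probe sets and 50 changed at each size, 17 were called at a log2 change of 1, 42 at 2 and 48 at 3. A change of 1 is itself the limit for a call. Far fewer probe sets changed there than the 9879 that passed the adjusted p in the data, and spreads were shuffled over probe sets. These shares therefore do not measure the power of the real comparison.

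The 10 genes and all lists were chosen with earlier results of these data known. All probe sets of the 10 genes are given, and of each list every called gene, at most 6 by size. Markers are given as counts and sums, and the values of single markers were added outside the plan. Gene names were checked by Entrez identifier against the RefSeq table of GRCr8, where 20758 probe sets matched. Detection calls were left aside, and folds of dim probe sets are understated.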

Additional observations from a re-analysis of the deposited data

How the results depend on the processing

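The 17 alternatives were PLIER with either offset, a filter on dim probe sets, quantile normalisation, centring on the median, technical replicate 2 left out or kept as an array, the replicate block, an intensity trend, the methods' t-test with and without adjustment, the mean over a gene's probe sets, any fold, and each replicate left out. Mgst1 (3.74 to 3.94), Gsta4 (2.27 to 2.92), Nqo1 (1.85 to 1.98), Hmox1 (1.31 to 1.72) and Txnrd1 1386958_at (-2.12 to -1.59) kept their direction under all of those run for them, and lost their calls only under the methods' t-test after Benjamini-Hochberg adjustment, at 3.82, 2.38, 1.92, 1.52 and -1.86. That test left 4 probe sets higher and 8 lower over the array, 0 and 0 of the 10 genes' and 0 and 0 genes of the 7 lists, against 1607, 1493, 4, 1, 19 and 3 with unadjusted p. With PLIER and an offset of 16, 2 probe sets of the 10 genes were called lower, Gsr stood at -1.22 and Keap1 1370066_at turned to 0.012. With an offset of 1, 3113 probe sets were higher over the array, Gclc 1372523_at stood at 1.00 and Keap1 1370066_at at 0.012. Without technical replicate 2, 2 were lower, with Gsr at -1.02. The mean of all probe sets gave -1.23 for Txnrd1 and 0.31 for Gclc. With any fold, 5047 probe sets were higher and 4832 lower over the array, 6 and 3 of the 10 genes' and 33 and 13 genes of the lists, among them Gclc 1372523_at at 0.98, Gclm at 0.55, Gsr at -0.96 and Txnrd1 1398791_at at -0.61. With each replicate left out in turn, 1 to 2 probe sets of the 10 genes and 2 to 6 genes of the lists were lower, Gclc 1372523_at ran from 0.88 to 1.09 and Gsr from -1.22 to -0.70. The replicate numbers are not said to mark a shared batch, and the deviations of same-numbered samples correlated at 0.12. With the replicate block, 1715 probe sets were higher and 2035 lower over the array, and 4 and 1 of the 10 genes', with no call of theirs changed. Of 238 counts per list under the alternatives 45 moved by over 1.5 times, and of 356 values of named genes outside the 10, 30 lost their call, 1 gained one and 2 reversed. The causes were not tested.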

Other observations

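Gclc and Gsta4 lie near each other on rat chromosome 8 in the RefSeq order of GRCr8, with 10 entries between them, of which 4 have a probe set of their own. These are Elovl5, a fatty acid elongase, with a log2 difference of 0.88 ± 0.14 (limma adjusted p = 0.00398), Gcm1 with 0.10 ± 0.12, Fbxo9 with 0.50 ± 0.12 (limma adjusted p = 0.0244) and Cilk1 with -0.07 ± 0.12. Thus 0 of the 4 were called, where 10.9% of all genes were called. Elovl5 and Fbxo9 passed the adjusted p, which 34.0% of all genes passed. At either end, Gsta4 stood at 2.38, and Gclc, itself not called, at 0.98 by its brighter probe set and -0.37 by the other. These genes were named after their values were seen, for their position alone.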
